A study of Homo sapiens with 6 samples.

Results

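The genes F11R, ARHGEF16, GPRC5A, CDH1, EPCAM, CLDN3, CLDN4, CLDN7, GRHL2 and ESRP1, chosen by name, belong to epithelial cell junctions or mark epithelial identity. All 10 symbols matched 1 gene each among the 20033 protein-coding genes on the autosomes and the sex chromosomes. F11R and ARHGEF16 were named by the study as more open in mutant cells on these same samples, so their values are no independent evidence of that direction. All 10 genes were chosen with earlier results of these data known, so the others are no independent evidence of it either. Open chromatin was mapped by ATAC-seq, where a transposase (Tn5) cuts accessible DNA and leaves adapters there, in neural progenitor cells (NPCs) made from the established human embryonic stem line H1. There were 6 samples, 2 replicates in each of 3 groups. WT NPCs had both demethylase genes intact. The dKO NPCs lacked UTX (KDM6A) and JMJD3 (KDM6B), enzymes that remove methyl groups from lysine 27 of histone H3, and descended from stem cells selected as puromycin-resistant clones, with JMJD3 deleted first and UTX second. The third group was dKO NPCs that also received a lentivirus for BAF53B, the actin-like protein that neurons build into their BAF remodelling complex. WT and dKO NPCs were taken at passage 2, and the labels give no passage for the BAF53B group.

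Epithelial cells hold together through tight junctions, adherens junctions and desmosomes. Claudins and the adhesion molecule F11R (JAM-A) act at tight junctions, E-cadherin (CDH1) forms adherens junctions, and EPCAM is a surface adhesion protein that associates with CLDN7. GRHL2 is a transcription factor that activates epithelial genes and ESRP1 directs epithelial splicing, whereas the repressors ZEB1, ZEB2, SNAI1 and SNAI2 bind E-box sequences at such genes. Human embryonic stem cells are themselves epithelial and carry E-cadherin, which is replaced by N-cadherin (CDH2) when neural progenitors form.

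The dKO list held a peak within 3 kb of the canonical start, that of the reference transcript, of 10 of 10 genes (58.7% of all protein-coding genes), the WT list of 0 (29%) and the list with BAF53B of 1, F11R (46.6%). This start was added after the data had been seen. The planned definition was the gene-record start, the outermost annotated start. There the counts were 9 in dKO (56.4%), 1 in WT (28.2%) and 2 with BAF53B (45%). The sequences below show where the dKO peaks of some of these promoters had their summits, because 8 of the 10 strongest peaks at canonical starts had a summit within 100 bases of the E-box word CAGGTG. Each is the hg38 sequence of up to 75 bases on either side of a dKO summit, on the strand of the gene and without annotated exons, and capitals mark CAGGTG. For CLDN3 and the upstream start of EPCAM no capitals appear, and they are shown for contrast.

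ARHGEF16, chr1:3453323-3453473, plus strand: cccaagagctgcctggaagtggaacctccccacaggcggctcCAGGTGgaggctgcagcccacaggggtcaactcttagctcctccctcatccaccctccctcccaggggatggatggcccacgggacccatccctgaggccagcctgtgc
GPRC5A, chr12:12890819-12890969, plus strand: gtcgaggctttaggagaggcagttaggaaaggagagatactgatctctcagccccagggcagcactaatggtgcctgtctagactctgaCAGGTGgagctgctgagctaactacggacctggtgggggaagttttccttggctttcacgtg
CLDN3, chr7:73770297-73770447, minus strand: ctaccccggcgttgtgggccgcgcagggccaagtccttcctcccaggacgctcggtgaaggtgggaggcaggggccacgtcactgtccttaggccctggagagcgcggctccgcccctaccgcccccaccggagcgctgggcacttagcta
EPCAM, upstream start, chr2:47345075-47345157, plus strand: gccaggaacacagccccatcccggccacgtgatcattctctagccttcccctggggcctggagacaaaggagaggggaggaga

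The 3 peak lists differed in length, from 7880 peaks (WT) through 16948 (BAF53B) to 25439 (dKO). Each list pooled both replicates. No value below therefore has a replicate check, an SD or a p-value, and all intervals are 95% Poisson intervals that cover counting error only. The genome background, the number of fragments that chance puts over a position and so a measure of depth, ranged over the lists from 6.33 (WT) to 6.81 (dKO), with BAF53B at 6.78. Of 9 neural progenitor genes fixed for checking the cell type, 2 had a peak at the canonical start in WT (29% of all genes). In dKO 7 had one (58.7%) and with BAF53B 4 (46.6%). SOX2, which maintains neural progenitors, was among the genes with a peak in dKO (pileup 70, fold 4.90) and none in WT. The lists are called here by the names their depositors gave them, and every difference between WT and dKO below rests on those names. The peak calls could not check the names. At these progenitor genes, as over all genes, the list named WT held fewer peaks than the list named dKO. The part of list length in the results below was not tested beyond lists of equal length and the calling limit. Peak calls do not check the deletions or the expression of BAF53B, and a region open in more cells cannot be told apart from one more open in each cell.

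The 2 highest of the dKO peaks at canonical starts belonged to junction genes, CLDN4 and F11R. In the dKO list the F11R peak (chr1:161020718-161021534) had a summit pileup, the number of fragments over the summit, of 83 (interval 66.1 to 103), with the summit 171 bp upstream of the canonical start. Its fold over local background was 6.49 and its −log10 q was 37.2, which placed it in the top 8.59% of dKO peaks. WT had no peak there and the list with BAF53B had a peak of 29 fragments (19.4 to 41.6) with a fold of 3.27. F11R was thus the only one of the 10 canonical starts with a peak in a second list, and that peak was in the weaker part of its list, within the top 88.1%.

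CDH1, the gene of E-cadherin, had a narrow dKO peak of 437 bp (chr16:68737096-68737532) with the summit 60 bp upstream of its start. The pileup was 69 (53.7 to 87.3), the fold 5.23 and the −log10 q 25.3. Neither other list held a peak at this promoter.

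The claudins, whose strands seal the space between epithelial cells, had dKO promoter peaks of unequal height. CLDN4 had the highest peak at a canonical start among the 10 genes, below the 96 fragments at the upstream start of EPCAM, with a pileup of 90 (72.4 to 111) and a fold of 5.07 at chr7:73830567-73831280, 90 bp upstream of the start. CLDN3, its neighbour on chromosome 7, had 61 fragments (46.7 to 78.4) and a fold of 4.39 at chr7:73769820-73771060, and CLDN7 had 50 fragments (37.1 to 65.9) and a fold of 3.47 at chr17:7262112-7263569. All 3 lacked a peak at this start in both other lists. CLDN3 and CLDN4 each had a second, lower dKO peak, of 39 and 44 fragments, 1452 bp and 1402 bp downstream of the start. The CLDN7 peak also lies near another protein-coding start, that of ENSG00000262302 at a distance of 449 bp, so it cannot be assigned to CLDN7 alone.

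EPCAM has a far upstream start and a canonical start that lies 24153 bp downstream of it, and the peaks at these starts differed in pattern. At the canonical start only dKO had a peak (chr2:47368982-47370022), of 42 fragments (30.3 to 56.8) and a fold of 4.16. At the upstream start all 3 lists had a peak, of 31 fragments (21.1 to 44) in WT, 96 (77.8 to 117) in dKO and 44 (32.0 to 59.1) with BAF53B. The start of a long noncoding RNA, EPCAM-DT, lies 60 bp from the summit of the dKO peak there, so the shared peak cannot be assigned to EPCAM alone. CLDN4 has a similar annotation, with the start of its gene record 31454 bp upstream of the canonical start, and no list held a peak within 3 kb of that outer start.

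The other genes of the group act in signalling and in gene control. ARHGEF16, a guanine nucleotide exchange factor for small GTPases, had 2 dKO promoter peaks, of 66 fragments (51.0 to 84.0) with the summit 1267 bp upstream of the start (chr1:3453215-3453940) and of 46 (33.7 to 61.4) at 208 bp upstream (chr1:3454196-3454760). GPRC5A, a retinoic acid-induced orphan receptor, had the lowest such dKO peak of the group, with 37 fragments (26.1 to 51.0), a fold of 3.18 and a −log10 q of 6.96 at chr12:12890589-12891591. Neither gene had a promoter peak in WT or with BAF53B.

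Both regulators, GRHL2 and ESRP1, were called at their canonical start in dKO alone. GRHL2 had a peak of 57 fragments (43.2 to 73.9) and a fold of 4.31 (chr8:101491828-101492834) with the summit 210 bp downstream of its start, inside the first exon. The starts of 2 long noncoding RNAs lie within 1 kb of that start. ESRP1 had 81 fragments (64.3 to 101) and a fold of 5.16 (chr8:94640563-94641343), 198 bp upstream, and a second peak of 41 fragments 1289 bp downstream. In order of pileup the strongest dKO peaks at canonical starts ran CLDN4, F11R, ESRP1, CDH1, ARHGEF16, CLDN3, GRHL2, CLDN7, EPCAM and GPRC5A, and the interval of each gene overlapped that of the next.

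**Figure D1:**
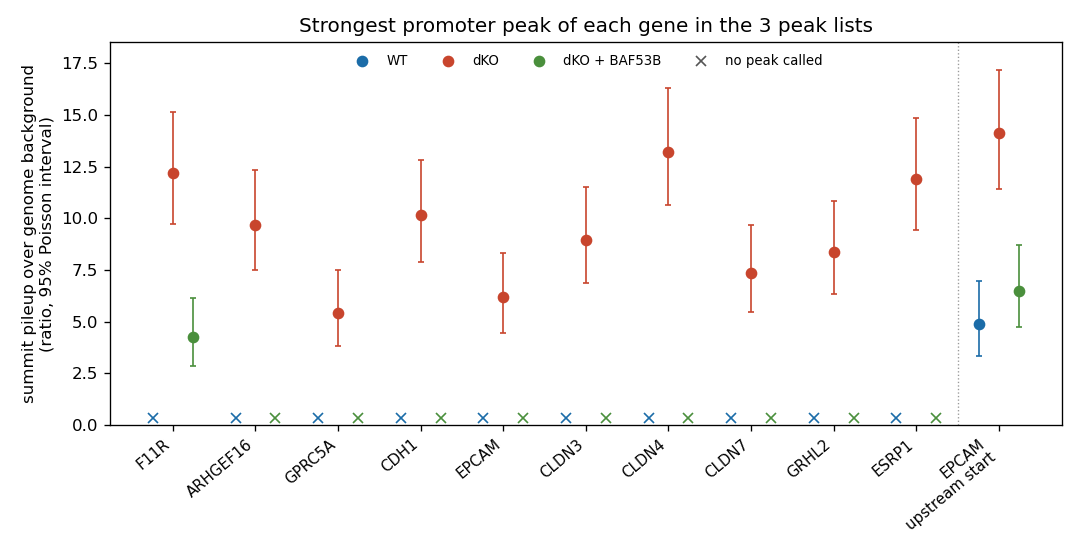
Summit pileup of the strongest peak within 3 kb of the canonical start, divided by the genome background of its list (y axis, ratio), for the 10 genes and the upstream start of EPCAM (x axis); points are pooled lists, bars are 95% Poisson intervals and crosses mark no called peak. The dKO points run from 5.43 for GPRC5A to 13.2 for CLDN4, WT has crosses at all 10 genes, and BAF53B has a point at F11R alone; at the upstream start of EPCAM all 3 lists have a point.

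The counts were then set beside those of all protein-coding genes. At canonical starts 0 of 10 genes had a peak in WT, where 29% of all genes did, 10 of 10 in dKO, where 58.7% did, and 1 of 10 with BAF53B, where 46.6% did. All 10 had a peak in dKO and not in WT, against 30.1% of all genes, and 9 had one in dKO alone, against 13%. The 8 genes that the study did not name as opened all had a peak in dKO and not in WT at canonical starts. They are no independent evidence, since they too were chosen with earlier results of these data known. At the gene-record start EPCAM and CLDN4 did not have this pattern. The pattern of the 9 genes called in dKO alone at canonical starts was shared by 2613 genes and that of F11R by 3417, so neither was rare.

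With the gene-record start, the outermost annotated start, EPCAM and CLDN4 changed class. Then 1 of 10 genes had a peak in WT (28.2% of all genes), 9 in dKO (56.4%) and 2 with BAF53B (45%). For 8 genes dKO held a peak where WT did not (28.6%), and for 7 dKO was the only list to hold one (12.4%). The WT call was the shared upstream start of EPCAM, and CLDN4 was the gene without a dKO call.

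Cutting each list to its 7880 peaks of highest −log10 q removed part of the dKO calls. At canonical starts 7 of 10 genes then kept a peak in dKO, where 34.5% of all genes had one, and GPRC5A, EPCAM and CLDN7 lost theirs. WT stayed at 0 of 10 (29%), and the count with BAF53B was 0 of 10 (32.3%) since the F11R peak was removed. The dKO share of the 10 genes was above the share of all genes, and the WT and BAF53B shares below it, with both definitions of list length.

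**Figure D2:**
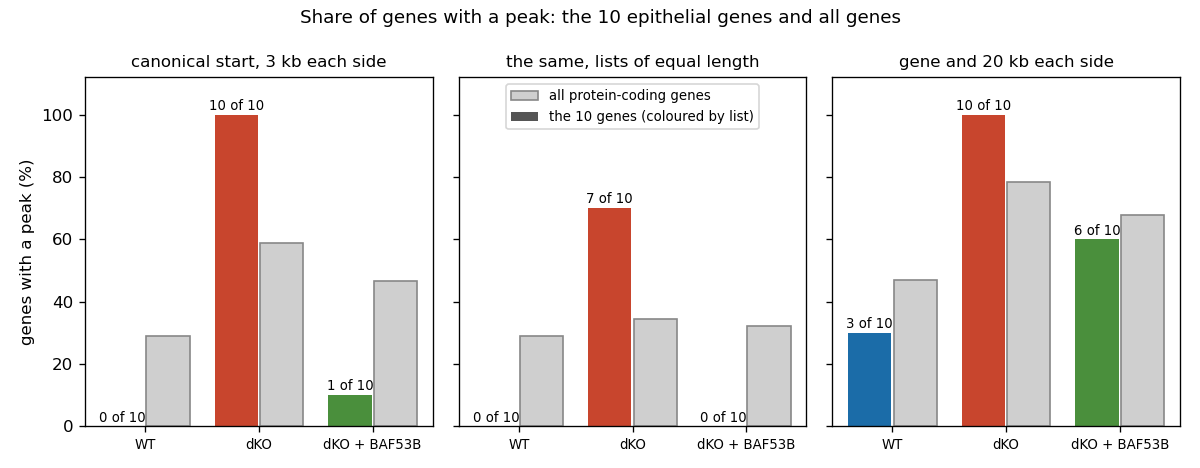
Share of genes with a peak (y axis, %) in each list (x axis) at the canonical start, at the canonical start with lists of equal length, and in the gene with 20 kb on each side; coloured bars are the 10 genes and grey bars all 20033 protein-coding genes. The coloured bar stands above the grey bar in dKO in all 3 panels, and below it in WT and with BAF53B.

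Whether a region as open as in dKO would have been called in WT was examined for each gene by scaling the dKO pileup to the WT genome background and comparing it with the pileup that a WT call would have needed at the same local background. The scaled pileup was above that limit for 10 of 10 genes, by 1.04 to 2.2 times. For F11R it was 77.1 (61.4 to 95.7) against 35 needed, and for CLDN4 83.6 (67.3 to 103) against 43. The interval lay wholly above the limit for 7 genes. For GPRC5A (34.4 against 33), EPCAM (39.0 against 30) and CLDN7 (46.5 against 38) it included the limit, so for these 3 a missing WT call is within counting error of a region of the same openness. The same 3 genes were the exceptions when the 9 genes without a BAF53B call were scaled to that list. The BAF53B peak of F11R, scaled to the WT depth, came to 27.1 fragments against 28 needed, so a region of that height could have gone uncalled in WT. The scaling used the genome background alone. Over peaks shared by dKO and WT, the dKO height had a median of 1.62 times the WT height after such scaling. The margin over the WT limit exceeded 1.62 for F11R (2.2), CLDN4 (1.95), ESRP1 (1.88) and CDH1 (1.78). It was below 1.62 for CLDN3 (1.53), GRHL2 (1.47), ARHGEF16 (1.43), EPCAM (1.3), CLDN7 (1.22) and GPRC5A (1.04). These margins are point values. By the lower end of the interval, F11R alone stayed above 1.62 times the need (61.4 against 35). CLDN4 (67.3 against 43), ESRP1 (59.8 against 40) and CDH1 (49.9 against 36) did not. No margin reached 2.38, below which 90% of the shared ratios lay. The intervals cover counting error of the dKO count alone.

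**Figure D3:**
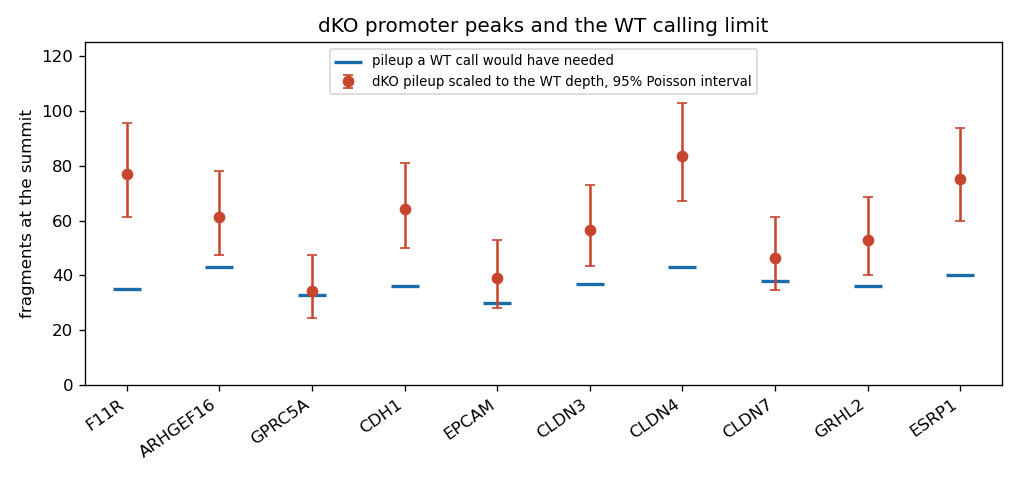
Summit pileup of the strongest dKO promoter peak scaled to the WT genome background (y axis, fragments; points with 95% Poisson intervals) and the pileup needed for a WT call at the same local background (blue dashes), for each of the 10 genes (x axis). Every point lies above its dash, and for GPRC5A, EPCAM and CLDN7 the interval reaches below it.

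The height of the dKO peaks was compared with that of other genes. The strongest peak at the canonical start of the 10 genes had a median pileup of 63.5 (range 37 to 90). Over the 6030 genes with a peak in dKO and not in WT the median was 45, and over the 5738 genes with a peak in both it was 75. The members were spread through the heights of these genes: CLDN4 was above 97.9% of those 6030 genes, F11R above 96.3%, ESRP1 above 95.7% and CDH1 above 89.4%, while EPCAM was above 40.2% and GPRC5A above 24.4%.

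Direct ratios between lists could be formed where both held a peak. At the upstream start of EPCAM the height over genome background in dKO was 2.88 times that in WT (interval 1.9 to 4.47), above that of 97.6% of the 6205 shared peaks, whose median ratio was 1.62. With BAF53B it was 0.461 times the dKO height (0.315 to 0.665), where the median of 11308 shared peaks was 0.773. Against WT the BAF53B height was 1.33 times (0.819 to 2.17), an interval that includes 1. At the F11R promoter the BAF53B height was 0.351 times the dKO height (0.222 to 0.542), a ratio lower than that of all but 0.301% of shared peaks.

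Peaks away from the promoters were counted in each gene with 20 kb on each side, 0.891 Mb in all. These windows held 5 WT peaks, 32 dKO peaks and 11 BAF53B peaks, from lists of 7880, 25439 and 16948 peaks. With lists of equal length they held 5, 15 and 5. At least 1 peak was found for 3 of 10 genes in WT (47% of all genes), for 10 in dKO (78.4%) and for 6 with BAF53B (67.9%). With lists of equal length the counts were 3, 9 and 2. No share of all genes was computed for this setting, so these counts cannot be read against other genes. In WT the 5 peaks were the upstream start of EPCAM and 4 at starts of neighbouring genes, among them PHF23 and CTDNEP1 beside CLDN7 and DPY19L4 beside ESRP1. The WT peak at CTDNEP1 overlapped peaks of the other lists whose summits lay nearest to ELP5. Apart from the peak at that outer EPCAM start, WT had no peak inside any of the 10 genes or at their canonical starts.

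In dKO 14 of the 32 peaks were at canonical starts, 1 at the upstream start of EPCAM, 8 at neighbouring starts, 7 inside a gene and 2 in the flanks. The 7 peaks inside genes had 27 to 53 fragments and lay in ARHGEF16, GPRC5A, CDH1 (2), CLDN4 and GRHL2 (2). The strongest of them was in intron 6 of ARHGEF16 (chr1:3471476-3472191, fold 3.01). The highest dKO peak of any window, with 161 fragments, belonged to PHF23 beside CLDN7, where WT had 59 and BAF53B 78.

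With BAF53B 5 of the 11 peaks were at neighbouring starts and 4 lay inside a gene, at positions where neither other list had a peak. These 4 were in intron 2 of CDH1 (chr16:68790342-68790643, 32 fragments), upstream of the canonical start of CLDN4 (chr7:73822429-73822993, 33 fragments) and in intron 1 of GRHL2 (chr8:101538029-101538557 with 36 fragments and chr8:101540263-101540671 with 32). All 4 were weak, with folds of 2.98 to 3.71. Of the 36 separate regions in the windows, 24 were called in dKO alone, 4 in BAF53B alone, 3 in both of these lists, 1 in WT and dKO and 4 in all lists. The 4 in all lists were the upstream start of EPCAM and 3 starts of neighbouring genes, among them PHF23 and ELP5. Shares of these patterns over all regions were not computed. Over the whole lists, 6205 of 25439 dKO peaks overlapped a WT peak, and 11308 of 16948 BAF53B peaks overlapped a dKO peak. Regions open in dKO without a WT peak were thus common beyond these genes.

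**Figure D4:**
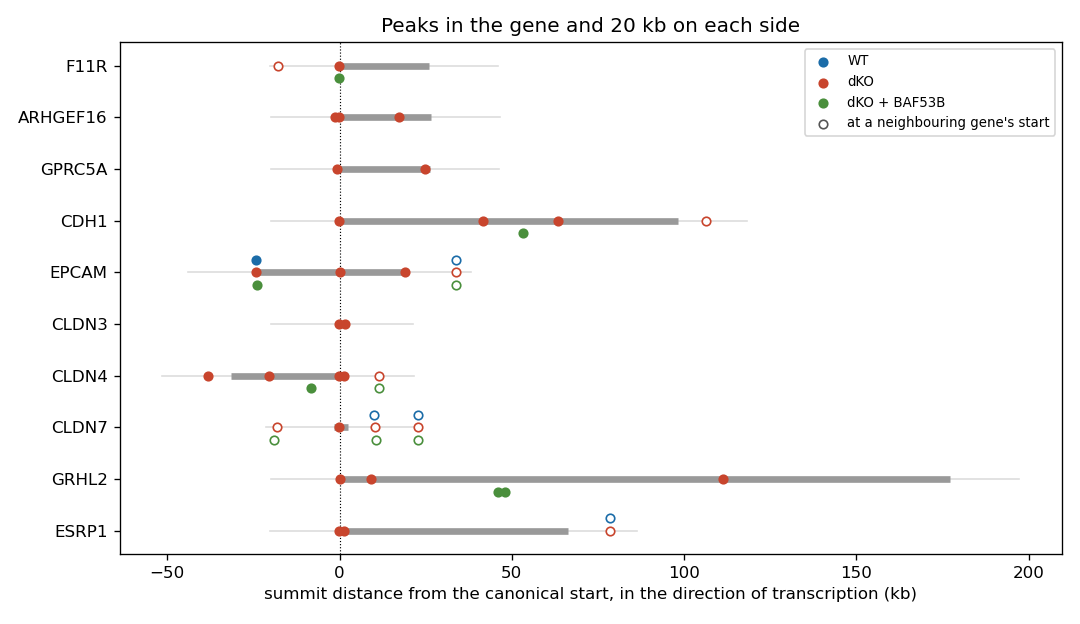
Peak summits of the 3 lists in each of the 10 genes (grey bar) with 20 kb on each side (thin line), by distance from the canonical start in the direction of transcription (x axis, kb; genes on the y axis); filled circles are peaks at or in the gene, open circles peaks at the start of a neighbouring gene. Red dKO points sit at the canonical start of every gene, and 4 of the 5 blue WT points are open circles.

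The base composition of the promoters did not set the group apart. Over 300 bases on each side of the canonical start the GC content had a median of 64.5% (58.6 to 79.4%), against 63.9% over all genes, and the ratio of observed to expected CpG a median of 0.733, against 0.766. ARHGEF16 was the richest in GC, at 79.4%, and CLDN4 had the fewest CpG for its composition, with a ratio of 0.411. Genes with a peak in dKO and not in WT had a median GC content of 68.1% and a CpG ratio of 0.828, both above the medians of the 10 genes.

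Words of known factor families were searched on both strands within 100 bases of the summit of each gene's strongest dKO peak at the canonical start; no word contains another, though words may overlap. The E-box word CAGGTG of the ZEB and SNAI repressors was found at 8 of 10 genes, all but CLDN3 and CLDN4. The second, lower promoter peak of CLDN4 did have the word. With the higher peak at the upstream start of EPCAM, which lacks the word, in place of its canonical peak the count is 7 of 10. The word was found at 18.4% of all dKO peaks and at 16.6% of the strongest promoter peaks of the 6030 genes called in dKO and not in WT. In the 500 bases before the canonical start it was found for 8 of 10 genes, CLDN3 among them and GPRC5A not, against 33.9% of all genes. Of the 32 dKO peaks in the windows 12 had the word, 11 of them among the 14 at canonical starts, and of the 5 WT peaks in the windows 0 did, where 11.2% of all WT peaks had it. These counts are descriptions, since a word match is not a bound site.

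The other words were set beside the same backgrounds, all dKO peaks first and the 6030 genes second. The AP-1 word TGANTCA was found at 1 of 10 genes, CLDN4 (4.82% and 2.26%), and the GRHL word AACNNGTT at 0 of 10 (2.48% and 1.28%). Of the 32 dKO peaks in the windows 2 had the GRHL word, the second promoter peak of CLDN4 and 1 inside GRHL2. The TEAD word GGAATG was found at 0 of 10 (12.8% and 6.6%). The SP and KLF word GGGCGG was found at 6 of 10 (39.3% and 62.9%) and the word CCCTC of the CTCF core at 7 of 10 (66.3% and 71.5%), both near the share of the 6030 genes. A missing match shows only that these letters are absent from the window. Of the 11 BAF53B peaks in the windows 3 had the AP-1 word, where 10.0% of all BAF53B peaks had it, and these 3 were the peaks inside CLDN4 and GRHL2 that no other list held.

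Related genes were counted at their canonical starts, with folds given at the gene-record start. The shares of all genes beside these counts were 58.7% in dKO, 29% in WT and 46.6% with BAF53B. Of 8 adherens junction genes 7 had a peak in dKO and 6 with BAF53B, with 1 in WT, NECTIN2 (WT fold 3.69). NECTIN1, a cell adhesion receptor, had folds of 4.17 in dKO and 3.73 with BAF53B, and AFDN, which links nectins to actin, 3.57 and 3.54. Of 7 tight junction genes 1 had a peak in dKO, CGN, the gene of the junction plaque protein cingulin, with folds of 7.13 in dKO and 5.19 with BAF53B.

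Desmosome genes had a peak for 5 of 7 in dKO (71.4%, beside 58.7% of all genes), 2 in WT (28.6% beside 29%) and 2 with BAF53B (28.6% beside 46.6%). The desmosomal cadherins DSG2 (4.22) and DSC2 (3.80) and the plaque gene DSP (3.06) had dKO folds without a WT peak, whereas JUP, the gene of plakoglobin, had a peak in all lists (5.57 in WT, 7.54 in dKO, 5.71 with BAF53B). Cell polarity genes had a peak for 6 of 7 in dKO (85.7% of them), 2 in WT (28.6%) and 3 with BAF53B (42.9%). The 2 in WT were PALS1 (fold 5.50) and PARD6B (4.89). PATJ (4.81), LLGL2 (4.68) and PRKCZ (4.18) led those called in dKO and not in WT.

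Epithelial factors related to GRHL2 and ESRP1 were less uniform than these members. Of 9 such genes 6 had a peak in dKO (66.7%, beside 58.7% of all genes), 3 in WT (33.3% beside 29%) and 4 with BAF53B (44.4% beside 46.6%). These shares were near those of all genes. ESRP2, the paralogue of ESRP1, had folds of 4.45 in WT, 5.30 in dKO and 4.62 with BAF53B. GRHL1 had 3.66, 4.15 and 3.04 in the same order, so both were called in every list, unlike ESRP1 and GRHL2. ELF3 (4.47) and OVOL2 (3.15) were called in dKO and not in WT. Of 14 keratin and epithelial surface genes 7 had a peak in dKO (50%, beside 58.7% of all genes) and 1, MUC1, had a peak in every list. KRT18 (4.36) and KRT19 (4.08), keratins of simple epithelia, and RAB25 (3.53) had theirs in dKO alone.

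Among the 18 other claudins 6 had a peak in dKO, 0 in WT and 2 with BAF53B, beside 3, 0 and 0 of the 3 members CLDN3, CLDN4 and CLDN7. Of the 4 with a peak also at the gene-record start, where folds were taken, the highest were CLDN23 (3.69), CLDN9 (3.22) and CLDN6 (3.14). Of 10 paralogues of F11R, ARHGEF16 and GPRC5A 4 had a peak in dKO, with JAM2 at a fold of 3.85 and ARHGEF19 at 2.72, and JAM3 was called in WT too (5.61). Over the 80 genes of these lists, each counted once, 42 had a peak in dKO, 10 in WT and 20 with BAF53B. The dKO share, 52.5%, was below the 58.7% of all genes, so the 10 of 10 did not hold for all of these genes. The shares in WT, 12.5%, and with BAF53B, 25%, were also below those of all genes (29% and 46.6%), while 40% of the 80 had a peak in dKO and not in WT, against 30.1%.

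Genes often listed as mesenchymal were counted beside them. The list is not particular to mesenchyme in these cells. It holds CDH2, which neural progenitors carry, and VIM, which the study measured as an NPC marker. Of 9 such genes 9 had a dKO peak (58.7% of all genes), 1, VIM (fold 3.14), a WT peak (29%) and 6 a BAF53B peak (46.6%). ZEB1 (4.41) and SNAI2 (4.29), repressors of CDH1, and FN1 (3.43), the gene of fibronectin, led those called in dKO and not in WT. These genes were also called with BAF53B, at folds of 3.5 for ZEB1, 3.07 for SNAI2 and 4.47 for FN1. Peaks at epithelial promoters and at promoters of their repressors were therefore present in the same pooled dKO list.

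**Figure D5:**
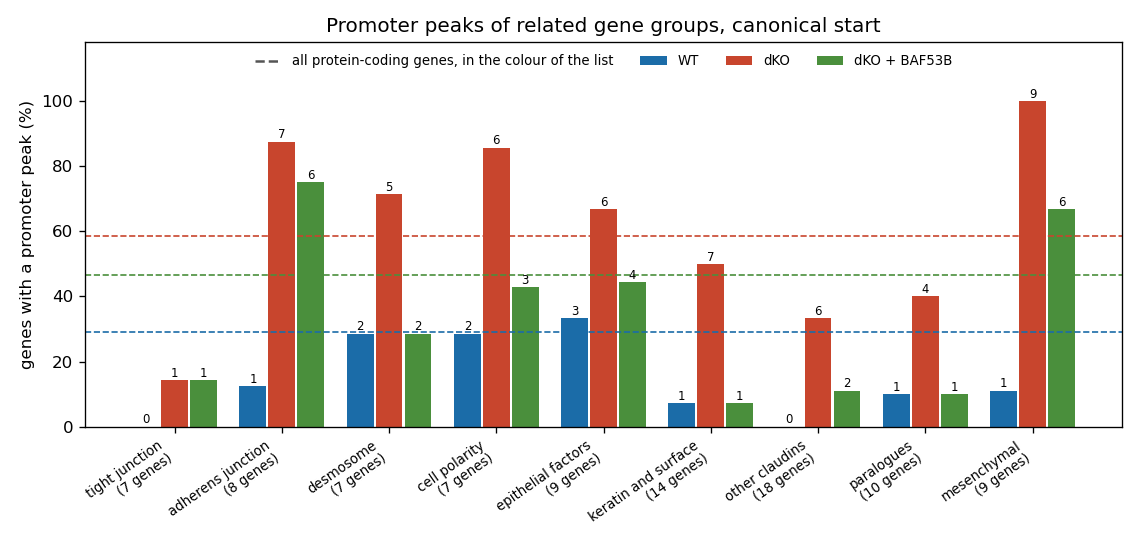
Share of genes with a peak at the canonical start (y axis, %) in the 3 lists for 9 groups of related genes (x axis); numbers over the bars are gene counts and dashed lines the share of all protein-coding genes in the same colour. The dKO bar is the highest in 8 groups and equal to that of BAF53B for tight junction genes, and the claudin, tight junction, paralogue and keratin bars lie below the red line.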

How the data were processed

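Open chromatin was profiled in 3 groups of 2 ATAC-seq replicates, with 1 peak list per group. Per the labels and methods, the authors used cutadapt 1.13 for adapters, Bowtie2 2.2.5 for alignment to hg38, SAMtools 1.3.1 and Picard 1.90 for duplicates and MACS2 for peaks. Calling options and the Tn5 shift are not given in the sources used here. As deposited, the fold is the ratio of summit pileup to local background, with 1 added to both. The authors' −log10 p is the Poisson value of that pair. Their −log10 q, at least 5 for every deposited peak, ranked and filtered peaks, and the deposited integer score was not used.

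Pileup and local background were solved from fold and −log10 p, within 0.001 in −log10 p, for 100% of peaks. Intervals on pileups are exact Poisson intervals and those on ratios exact conditional intervals, at 95%. Genes came from GENCODE version 44. A gene was called where a peak overlapped its start by at least 1 bp within 3 kb. The gene-record start was the main definition, and the Ensembl canonical start was added after the data had been seen, because the outer starts of EPCAM and CLDN4 lie far from it. The members and the related lists were chosen with earlier results of these data known. From each related list at most 3 genes were named, by dKO fold among those called in dKO and not in WT, and at most 3 by WT fold. Scripts ran in Python 3.11.15 with scipy 1.17.1, numpy 2.4.6, pandas 2.3.3 and matplotlib 3.10.9, and the steps were tested on simulated data. No test was run, since each list pools its replicates. Values of some neighbouring and related genes and some promoter sequences are not reported here.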

Additional observations from a re-analysis of the deposited data

How the results depend on the processing

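No paired analysis was possible because the replicates of a group share 1 list, and leaving out a replicate could not be run for the same reason. Of 63 alternatives 40 stayed near the value reported, 23 moved and 0 reversed. Members with a promoter peak numbered 1 in WT, 9 in dKO and 2 with BAF53B at the gene-record start. In WT the count fell to 0 at a −log10 q of at least 10 and, chosen after the data had been seen, at the canonical start as deposited, with equal list length or with that −log10 q. With BAF53B it was 1 at a −log10 q of at least 10, with equal list length or at the canonical start, and 0 at the canonical start with either of the stricter settings. The dKO count stayed within 1.5 times of 9 throughout. Members with a peak in the gene and 20 kb on each side fell from 3 to 1 in WT with a 5 kb flank or the gene alone, and with BAF53B from 6 to 2 at a −log10 q of at least 10 or with equal list length. Peaks in the windows fell in WT from 5 to 3 at that −log10 q and to 1 with a 5 kb flank, in dKO from 32 to 19 and, with equal list length, to 15, and with BAF53B from 11 to 5 under both and to 6 with a 5 kb flank. By −log10 p in place of the pileup the F11R ratio of BAF53B to dKO was 0.206, and at the upstream start of EPCAM the ratio of dKO to WT was 5.95 and that of BAF53B to dKO 0.3. The smallest pileup that could be called at the genome background was 25 in WT and dKO and 26 with BAF53B, so less open regions are not seen.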
